A study of Mus musculus with 11 samples.

Results

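Toll-like receptors are the membrane proteins with which macrophages recognise molecules of microbes. The RNA of 10 of them, Tlr1 to Tlr9 and Tlr13, was followed in bone marrow derived macrophages (BMDM) of C57BL/6 mice. The 10 genes were taken by name from a deposited table of read counts for 42375 named genes, and all 10 are in it. The study set macrophages in the M1 state beside macrophages in the M0 state, each treated with a gapmer that targets MERRICAL, a long noncoding RNA (KD), or with a gapmer labelled NS. A gapmer is an antisense oligonucleotide that leads RNase H to cut the RNA it binds. The 11 libraries form 4 groups: M1 KD (2 libraries, numbered 5 and 6), M1 NS (3 libraries, numbered 1, 2 and 4), M0 KD (3 libraries, numbered 1, 2 and 4) and M0 NS (3 libraries, numbered 1, 2 and 4). Every group carries the same genotype label and had its gapmer for 16 hours. M1 is the usual name for inflammatory, classically activated macrophages and M0 for macrophages that were not polarised. The labels do not say which agent gave M1, how old the mice were or of which sex, nor whether the libraries of a group came from separate mice or cultures. The p-values therefore rest on a spread between libraries that may be technical alone. M1 KD shares no library number with the other groups, so that whatever the numbers 5 and 6 stand for cannot be told apart from the gapmer in M1. The level of MERRICAL was not analysed here.

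Each Toll-like receptor binds its ligand with leucine-rich repeats on the outer side of a membrane and signals through a TIR domain in the cytosol, where adaptors such as MyD88 and TRIF lead to NF-kappaB and to interferon regulatory factors (IRFs). At the cell surface TLR4 senses lipopolysaccharide, TLR2 senses bacterial lipopeptides in pairs with TLR1 or TLR6, and TLR5 senses flagellin. In endosomes TLR3 senses double-stranded RNA, TLR7 single-stranded RNA, TLR9 DNA with unmethylated CpG and the mouse receptor TLR13 bacterial ribosomal RNA, while TLR8 is known as a sensor of RNA breakdown products in human cells. Macrophages carry most of these receptors.

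Tlr1 and Tlr6 are neighbours in the genome, and so are Tlr7 and Tlr8. On GRCm38 with the GENCODE M21 annotation, Tlr1 (chr5:64924679-64933563) and Tlr6 (chr5:64952031-64960097) are neighbours on the minus strand of chromosome 5. Tlr8 (chrX:167242696-167264329) and Tlr7 (chrX:167304929-167330558) are neighbours on the minus strand of chromosome X, which also holds Tlr13 (chrX:106143204-106160493) on the plus strand. On the minus strand lie Tlr2 (chr3:83836272-83841767) and Tlr3 (chr8:45395665-45411080). On the plus strand lie Tlr4 (chr4:66827584-66930284), Tlr5 (chr1:182954788-182976044) and Tlr9 (chr9:106222598-106226883). Their exonic lengths, the union of all annotated exons, run from 3014 bases for Tlr2 to 5556 bases for Tlr4, and the transcript with the most exons has 2 in Tlr6 and Tlr9 and 7 in Tlr3. In Tlr3, 381 exonic bases overlap Gm45542 on the other strand, and since the sources used here do not state the strand setting of the counting, reads of the 2 genes cannot be told apart there.

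Tlr1 and Tlr6 hold near-identical stretches, so their counts cannot be fully separated. Of the 50-base windows of the longest transcript, 15.3% of those in Tlr1 and 12.5% of those in Tlr6 occur in the other gene, 454 windows in all. The sources used here do not state how reads that match both were counted. The longest shared run is 229 bases, coding in both genes (bases 1939 to 2167 of the Tlr1 transcript and 1652 to 1880 of the Tlr6 transcript), and is shown because it sets this limit.
Tlr1 and Tlr6: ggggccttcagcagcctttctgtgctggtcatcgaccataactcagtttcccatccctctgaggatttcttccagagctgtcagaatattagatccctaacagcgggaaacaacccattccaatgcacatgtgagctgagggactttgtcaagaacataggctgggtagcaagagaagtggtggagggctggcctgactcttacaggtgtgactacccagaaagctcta

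The promoters of 4 receptors whose RNA moved in different ways between the states are shown beside each other, as RefSeq gives them on GRCm38.p6, from 250 bases before to 50 bases after the start of transcription. RefSeq entries were matched by symbol for 8 of the 10 genes, in 10 windows. Searched on both strands were PU.1 as GAGGAAGT, AP-1 as TGANTCA, IRF as GAAA, any 2 bases and GAAA again, and the NF-kappaB consensus, and capitals mark the matches. Tlr9 (chr9:106222348-106222647, plus strand) and Tlr1 (chr5:64933509-64933808, minus strand) were higher in M1 NS than in M0 NS, and Tlr2 (chr3:83841559-83841858, minus strand) and Tlr13 (chrX:106143025-106143324, plus strand) were lower.
Tlr9: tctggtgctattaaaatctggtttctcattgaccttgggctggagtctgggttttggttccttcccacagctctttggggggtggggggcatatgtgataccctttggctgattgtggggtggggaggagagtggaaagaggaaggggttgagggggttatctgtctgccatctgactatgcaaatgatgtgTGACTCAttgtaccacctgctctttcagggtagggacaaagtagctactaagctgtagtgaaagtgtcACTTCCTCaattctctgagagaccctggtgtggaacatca
Tlr1: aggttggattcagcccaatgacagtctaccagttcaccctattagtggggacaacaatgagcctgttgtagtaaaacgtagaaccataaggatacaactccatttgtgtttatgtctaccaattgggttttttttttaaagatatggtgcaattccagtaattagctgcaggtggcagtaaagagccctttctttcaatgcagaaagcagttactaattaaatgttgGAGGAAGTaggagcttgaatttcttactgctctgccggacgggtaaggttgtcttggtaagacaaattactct
Tlr2: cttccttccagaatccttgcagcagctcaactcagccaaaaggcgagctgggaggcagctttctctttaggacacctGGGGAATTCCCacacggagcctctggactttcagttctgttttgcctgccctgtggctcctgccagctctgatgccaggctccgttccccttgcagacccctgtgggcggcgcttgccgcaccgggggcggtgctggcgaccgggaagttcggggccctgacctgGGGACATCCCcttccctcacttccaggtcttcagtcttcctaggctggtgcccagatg
Tlr13: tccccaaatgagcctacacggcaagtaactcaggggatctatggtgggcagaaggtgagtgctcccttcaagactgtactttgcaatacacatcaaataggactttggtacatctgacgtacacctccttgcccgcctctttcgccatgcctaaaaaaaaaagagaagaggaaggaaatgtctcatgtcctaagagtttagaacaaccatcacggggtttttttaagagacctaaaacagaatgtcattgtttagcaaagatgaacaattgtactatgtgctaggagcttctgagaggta

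Counted from the start of transcription with no position 0, the Tlr9 window holds an AP-1 match at -58 to -52 and a PU.1 match on the other strand at 11 to 18. The Tlr1 window holds a PU.1 match at -23 to -16. The Tlr2 window holds 3 NF-kappaB matches, of which those at -173 to -164 and -172 to -163 overlap and another lies at -8 to 2, and the Tlr13 window holds none of the 4 motifs. Among the windows not printed, that of Tlr3 holds 1 NF-kappaB match and 1 of the 2 Tlr6 windows holds 2 overlapping IRF matches. Of 32851 promoter windows of this length, 3.2% hold the PU.1 motif, 7.81% AP-1, 3.44% IRF and 8.46% NF-kappaB. A match describes letters only and shows neither a site in use nor a cause.

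Total counts ran from 30040632 to 43250392 per library. The labels were checked against markers: all 10 macrophage markers were detected in each group, and all 8 genes of the M1 check (among them the inducible nitric oxide synthase Nos2, the interleukin 12 subunit Il12b and the cyclooxygenase Ptgs2) were called higher in both comparisons of M1 with M0. Within groups the libraries were not equal, and M1 NS replicate 4 stood apart from M1 NS replicates 1 and 2 in several receptors, as did M1 KD replicates 5 and 6 from each other. Markers of other cells differed between groups too. The summed level of 16 neutrophil markers was 205 to 212 CPM in M1 KD, 243 to 318 in M1 NS, 690 to 737 in M0 KD and 1290 to 2291 in M0 NS, whereas 8 B cell markers summed to at most 6.26 CPM in any library. In RNA from whole cultures, fewer cells of a type and less RNA per cell cannot be told apart, which holds for each difference given here.

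Levels are given as CPM, the count of a gene relative to the TMM-scaled size of its library, and as CPM per kilobase of exonic length where genes are set against each other. In the M1 groups Tlr9 led the family. Its level per kilobase averaged 74.5 ± 41.2 in M1 KD (SD, n = 2) and 77.1 ± 28.3 in M1 NS (SD, n = 3), against 12.1 ± 2.83 in M0 KD and 20.1 ± 7.57 in M0 NS (SD, n = 3 each). In M0 the RNA sensors Tlr13 and Tlr8 stood at the top: Tlr13 averaged 85.7 ± 19.1 CPM per kilobase in M0 KD and 57.7 ± 10.2 in M0 NS, and Tlr8 averaged 75.5 ± 6.36 in M0 KD and 55.5 ± 11.8 in M0 NS. The ranges of these leading M0 genes overlapped in both M0 groups, and in M0 NS so did those of Tlr8 with Tlr2 and of Tlr2 with Tlr7, so that the order at the top of M0 NS is not settled by these libraries.

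Below the top, Tlr1 was next to Tlr9 in M1, at 25.8 ± 6.01 CPM per kilobase in M1 KD and 53.7 ± 5.99 in M1 NS. In M1 KD the Tlr9 range lay above that of Tlr1, while in M1 NS the ranges overlapped, since Tlr9 was at 44.4 and Tlr1 at 47.8 CPM per kilobase in replicate 4. Tlr3 and Tlr4 were the lowest of the genes other than Tlr5 in M1, with means of 3.18 and 1.58 CPM per kilobase in M1 KD and 4.35 and 5.37 in M1 NS. In M0 the lowest were Tlr3, at 4.08 in M0 KD and 3.18 in M0 NS, and Tlr5, at 0.544 in M0 KD and 0.567 in M0 NS. Tlr5 closed the order in every group.

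The make-up of the family shifted with state more than its total in NS cells did. The 10 genes together came to 109 and 193 CPM per kilobase in M1 KD, 265, 230 and 245 in M1 NS, 333, 314 and 295 in M0 KD, and 292, 329 and 207 in M0 NS. M1 NS lay inside the M0 NS range, and both M1 KD libraries lay below every other library. Tlr9 alone made up 41.5% and 53.6% of that sum in M1 KD and 34.9%, 41.0% and 18.1% in M1 NS, against 3.05%, 3.41% and 5.19% in M0 KD and 7.46%, 8.13% and 5.73% in M0 NS. Tlr13 made up 7.77% and 2.55% in M1 KD and 5.14%, 4.36% and 10.6% in M1 NS, against 29.4%, 30.4% and 21.6% in M0 KD and 20.4%, 20.4% and 22.6% in M0 NS. The 5 endosomal receptors together held 68.5% and 75.2% of the sum in M1 KD and 60.1% to 65.0% in M1 NS, against 68.3% to 74.8% in M0 KD and 62.8% to 64.3% in M0 NS, so that the endosomal share ranges of M1 NS and M0 NS overlapped while the genes inside it changed places.

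**Figure D1:**
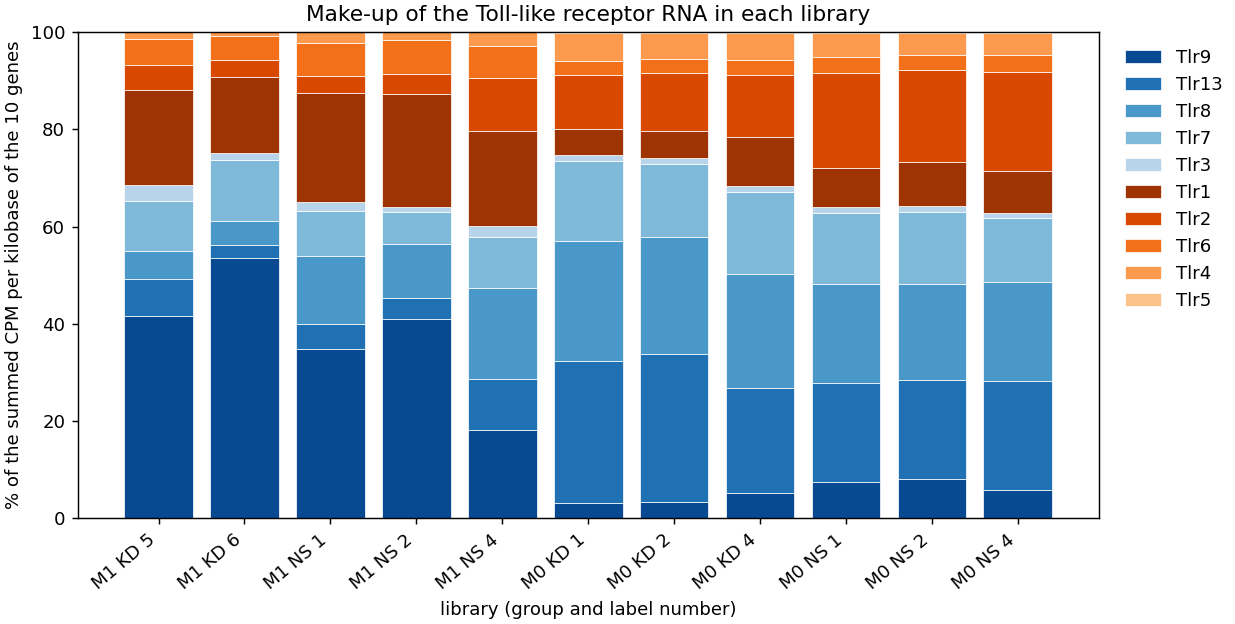
Share of each receptor, in percent of the summed CPM per kilobase of the 10 genes, in each of the 11 libraries; blue shades are endosomal and orange shades surface receptors. Tlr9 takes 18.1% to 53.6% of the bar in the M1 libraries and at most 8.13% in the M0 libraries, where Tlr13 takes 20.4% to 30.4%.

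M1 NS was compared with M0 NS to see how the receptors differ between states. By edgeR's quasi-likelihood test on 15024 genes, with a Benjamini-Hochberg adjusted p under 0.05 as the threshold for a call, 3 of the 9 receptors other than Tlr5 were called higher in M1 NS (Tlr9, Tlr1 and Tlr6) and 5 lower (Tlr2, Tlr4, Tlr7, Tlr8 and Tlr13), and Tlr3 was not called. Of all genes tested, 55.5% were called, 26.9% higher and 28.6% lower, so a call as such is common in this comparison. Tlr5 was called lower too, but it passed the filter on low counts only through M0 libraries and had to differ. For the other 9 members the median log2 fold change was -0.62, against -0.038 over all genes. Of the 16 neutrophil markers, 3 passed the filter through M0 libraries only. Of the other 13, 12 were also called lower in M1 NS, and 12 lower and 1 higher in M1 KD against M0 KD, and their part in the lower receptors was not tested.

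The same contrast with the MERRICAL gapmer, M1 KD against M0 KD, uses other libraries. There 1 of the 9 receptors other than Tlr5 was called higher (Tlr9) and 5 lower (Tlr2, Tlr4, Tlr7, Tlr8 and Tlr13), against 58.3% of all genes called, 26.9% higher and 31.4% lower. Tlr1, Tlr3 and Tlr6 were not called. The median log2 fold change of the 9 members other than Tlr5 was -1.50, against -0.11 over all genes.

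Within a state, the gapmers were compared. In M1 KD against M1 NS, 6 receptors were called lower (Tlr1, Tlr2, Tlr4, Tlr6, Tlr8 and Tlr13) and none higher, against 36.8% of all genes called, 17.6% higher and 19.2% lower. The log2 fold changes of the 9 members other than Tlr5 were all below 0, with a median of -1.15, against 0.00103 over all genes. In the same comparison 4 of the 8 M1 check genes were called lower and 1 higher, 5 of the 16 neutrophil markers lower and 1 higher, and 1 of the 7 conventional dendritic markers higher with all 7 above 0. The part of these shifts in the lower receptors was not tested. In M0 KD against M0 NS edgeR called 0 receptors and 0 of all genes (0%). At an unadjusted p under 0.05 it gave 0 receptors and 1947 genes (13%), and DESeq2 called 0 receptors and 175 genes (1.25%), while limma-voom and limma-trend called 0 receptors and 0 genes. The difference of the gapmer effects, M1 minus M0, was called for 4 receptors, Tlr4, Tlr6, Tlr8 and Tlr13, all towards a lower level with KD in M1, against 27.3% of all genes called, 13.1% higher and 14.2% lower. The comparisons share groups: M1 NS enters the first and the third, M0 NS the first and the fourth, M1 KD the second and the third, M0 KD the second and the fourth, and all 4 groups the last.

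**Figure D2:**
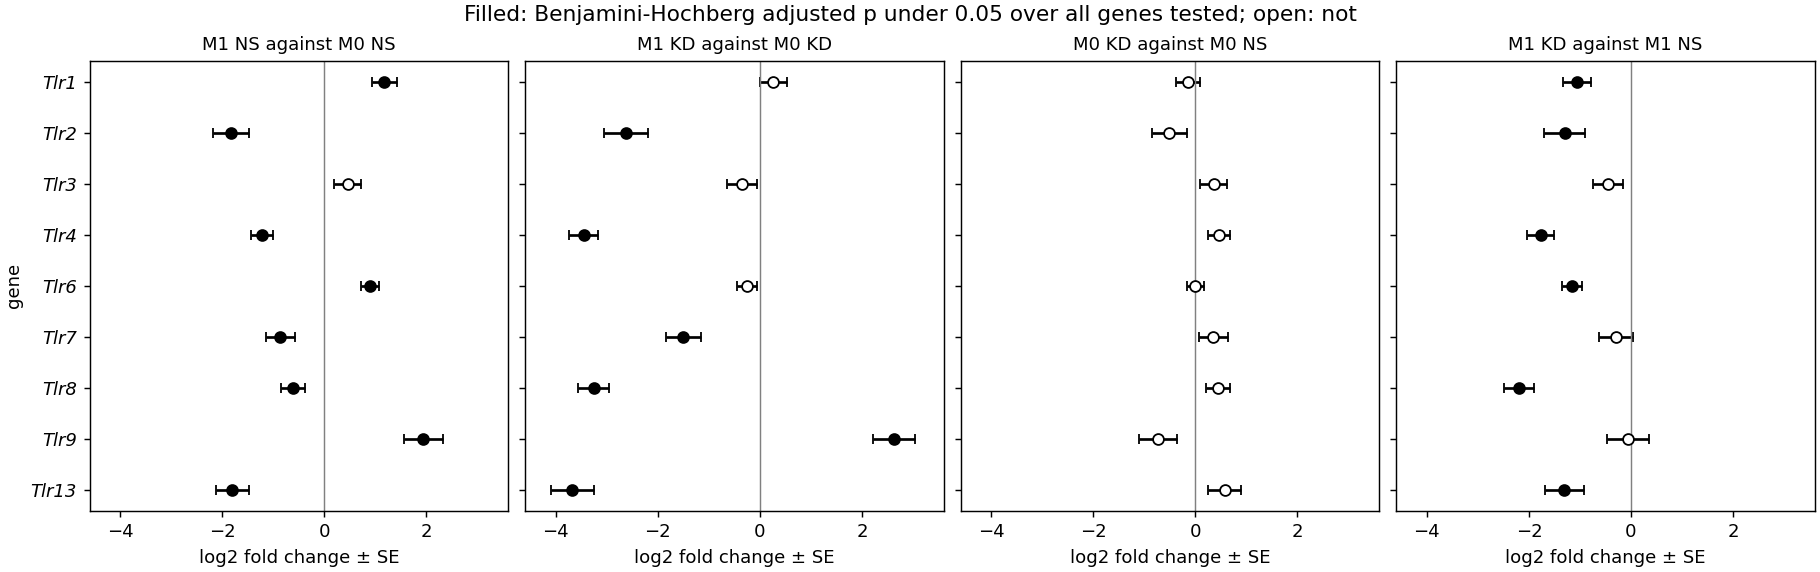
Log2 fold change ± SE of 9 receptors in 4 comparisons; filled points have an adjusted p under 0.05 over all genes tested. Tlr5 is not drawn, since M1 libraries hold 1 count of it in all. Tlr9 lies right of 0 in both comparisons of M1 with M0, and in M1 KD against M1 NS the 6 filled points lie left of 0.

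Tlr4, the lipopolysaccharide receptor, was lower in M1 than in M0, and lowest in M1 KD. It measured 8.26 and 9.33 CPM in M1 KD, 31.2, 20.2 and 38.1 in M1 NS, 106, 92.1 and 90.3 in M0 KD, and 77.5, 81.3 and 50.4 in M0 NS. None of the 4 groups overlapped. M1 KD was 10.9-fold lower than M0 KD (log2 fold change -3.45, SE 0.29, edgeR adjusted p = 1.16e-06). M1 NS was 2.33-fold lower than M0 NS (log2 fold change -1.22, SE 0.22, edgeR adjusted p = 5.46e-04). With the MERRICAL gapmer it fell in M1, by 1.77 on the log2 scale against M1 NS (SE 0.27, edgeR adjusted p = 4.34e-04). In M0 KD its log2 fold change against M0 NS was 0.46 (SE 0.22, edgeR adjusted p = 0.39), which did not pass. The difference of these effects was -2.23 (SE 0.34, edgeR adjusted p = 9.25e-04).

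Genes for the proteins that hand lipopolysaccharide to TLR4 had other profiles. Cd14, which passes lipopolysaccharide to the receptor, was at 1106 and 1343 CPM in M1 KD and at 1182, 1470 and 1822 in M1 NS, against 260.4, 267 and 339.6 in M0 KD and 322, 387 and 301 in M0 NS. It was called higher in M1 NS against M0 NS (log2 fold change 2.15, SE 0.20, edgeR adjusted p = 2.19e-06) and in M1 KD against M0 KD (2.08, SE 0.21). Ly96, which encodes MD-2, the part of the receptor complex that binds lipopolysaccharide, was between 13.0 and 23.9 CPM in all libraries and was called in no comparison. Lbp, the lipopolysaccharide binding protein of serum, was at 9.85 CPM or less and was lower in M1 NS than in M0 NS (log2 fold change -2.89, SE 0.30, edgeR adjusted p = 6.17e-06).

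Cd180 and Ly86 encode a receptor complex that resembles TLR4 with MD-2. Ly86 measured 144 and 163 CPM in M1 KD, 71.0, 69.4 and 75.8 in M1 NS, 184, 177 and 215 in M0 KD, and 213, 256 and 170.0 in M0 NS. It was the co-receptor called in M1 KD against M1 NS, where it rose (log2 fold change 1.09, SE 0.17, edgeR adjusted p = 4.88e-04). Cd180 was called in no comparison, with a log2 fold change of 0.52 (SE 0.20) in M1 KD against M1 NS. Of the 7 co-receptors on the list, 1 was higher and 3 were lower in M1 NS against M0 NS (Cd14 higher; Ly86, Lbp and Cd36 lower), 1 was higher and 2 were lower in M1 KD against M0 KD, 1 was higher in M1 KD against M1 NS, and 0 were called in M0 KD against M0 NS. For the difference of the gapmer effects 2 were called, Ly86 at 1.24 and Lbp at 1.42 on the log2 scale. Lbp lost its call in 5 of 21 alternatives. Among all genes tested, 55.5% were called in M1 NS against M0 NS and 58.3% in M1 KD against M0 KD. The value was 36.8% in M1 KD against M1 NS, 0% in M0 KD against M0 NS and 27.3% for the difference. A smaller share of the co-receptors was called in M1 KD against M0 KD and in M1 KD against M1 NS. Elsewhere their share was close to that of all genes.

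Tlr2, whose protein pairs with TLR1 or TLR6, was lower in M1 as well. Its levels were 16.8 and 20.2 CPM in M1 KD, 27.3, 27.3 and 81.2 in M1 NS, 113.3, 113.6 and 113.7 in M0 KD, and 171, 188 and 127 in M0 NS. The groups did not overlap, but M1 NS replicate 4 lay well above the other M1 NS libraries. M1 NS was 3.57-fold lower than M0 NS (log2 fold change -1.84, SE 0.35, edgeR adjusted p = 7.81e-04), and without M1 NS replicate 4 the log2 fold change was -2.56. M1 KD was 6.14-fold lower than M0 KD (log2 fold change -2.62, SE 0.43, edgeR adjusted p = 2.27e-04).

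For Tlr2 the gapmer call in M1 depended on single libraries. In M1 KD against M1 NS it was called lower (log2 fold change -1.30, SE 0.40, edgeR adjusted p = 0.0255). Without M1 NS replicate 4 the Tlr2 log2 fold change was -0.52 (adjusted p = 0.0305). The call was lost without M1 KD replicate 5 (-1.18, adjusted p = 0.159), without M1 KD replicate 6 (-1.44, adjusted p = 0.088) and with the libraries of M1 KD and M1 NS alone (-1.26, adjusted p = 0.111). Within M0 the Tlr2 log2 fold change of KD against NS was -0.51 (SE 0.34, edgeR adjusted p = 0.508); the neutrophil markers, of which 16 of 16 were below 0 and 0 called in this comparison, moved in the same direction, and their part was not tested. Cd36, a scavenger receptor that assists the TLR2 and TLR6 pair, was lower in M1 NS against M0 NS (log2 fold change -1.35, SE 0.36, edgeR adjusted p = 0.00655).

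Tlr1 and Tlr6, the partners of Tlr2, went the other way in NS cells. Tlr1 measured 72.0 and 100.4 CPM in M1 KD, 200.1, 179 and 160.1 in M1 NS, 57.7, 57.3 and 100.4 in M0 KD, and 79.4, 99.6 and 59.9 in M0 NS. Only M1 NS stood clear of the other groups. Tlr1 was 2.26-fold higher in M1 NS than in M0 NS (log2 fold change 1.17, SE 0.24, edgeR adjusted p = 0.00135) and was lower in M1 KD than in M1 NS (log2 fold change -1.06, SE 0.28, edgeR adjusted p = 0.0109). That last call was lost without M1 KD replicate 5 (-0.85, adjusted p = 0.109). The Tlr1 log2 fold change of M1 KD against M0 KD was 0.26 (SE 0.27, edgeR adjusted p = 0.419), and it was -0.23 with library size as the only scaling.

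Tlr6 was likewise highest in M1 NS. It measured 21.7 and 35.3 CPM in M1 KD, 68.0, 60.9 and 60.6 in M1 NS, 34.8, 34.6 and 32.7 in M0 KD, and 37.3, 37.4 and 27.6 in M0 NS. The M1 NS libraries lay above all others, whose groups overlapped. Tlr6 was 1.85-fold higher in M1 NS than in M0 NS (log2 fold change 0.89, SE 0.17, edgeR adjusted p = 8.29e-04) and 2.22-fold lower in M1 KD than in M1 NS (log2 fold change -1.15, SE 0.20, edgeR adjusted p = 0.001). The difference of the gapmer effects was called, at -1.15 (SE 0.26, edgeR adjusted p = 0.0075), with a log2 fold change of -0.0019 (SE 0.17) in M0 KD against M0 NS. Against M0 KD, Tlr6 in M1 KD was not called (-0.26, SE 0.19, edgeR adjusted p = 0.272), but it was called lower with library size as the only scaling (-0.75, adjusted p = 0.00395) and without M1 KD replicate 6 (-0.65, adjusted p = 0.0158). Because Tlr1 and Tlr6 share the stretches shown above, part of the reads of each may belong to the other.

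Tlr5, the flagellin receptor, was a low M0 gene that was next to undetected in M1. The M1 KD libraries held 0 counts, the 3 M1 NS libraries held 1 count in all, in replicate 1, the M0 KD libraries held 340 (2.37, 2.27 and 3.19 CPM) and the M0 NS libraries held 332 (3.07, 2.83 and 2.24 CPM). Tlr5 was 259.9-fold lower in M1 NS than in M0 NS, with an exact 95% interval of 46.3 to 10300 if counting error alone is covered. M1 KD was at least 56.2-fold lower than M0 KD, with 3 counts over the group as the floor. No fold is given for M1 KD against M1 NS, where both groups are at or under the floor, and the M0 groups overlapped.

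**Figure D3:**
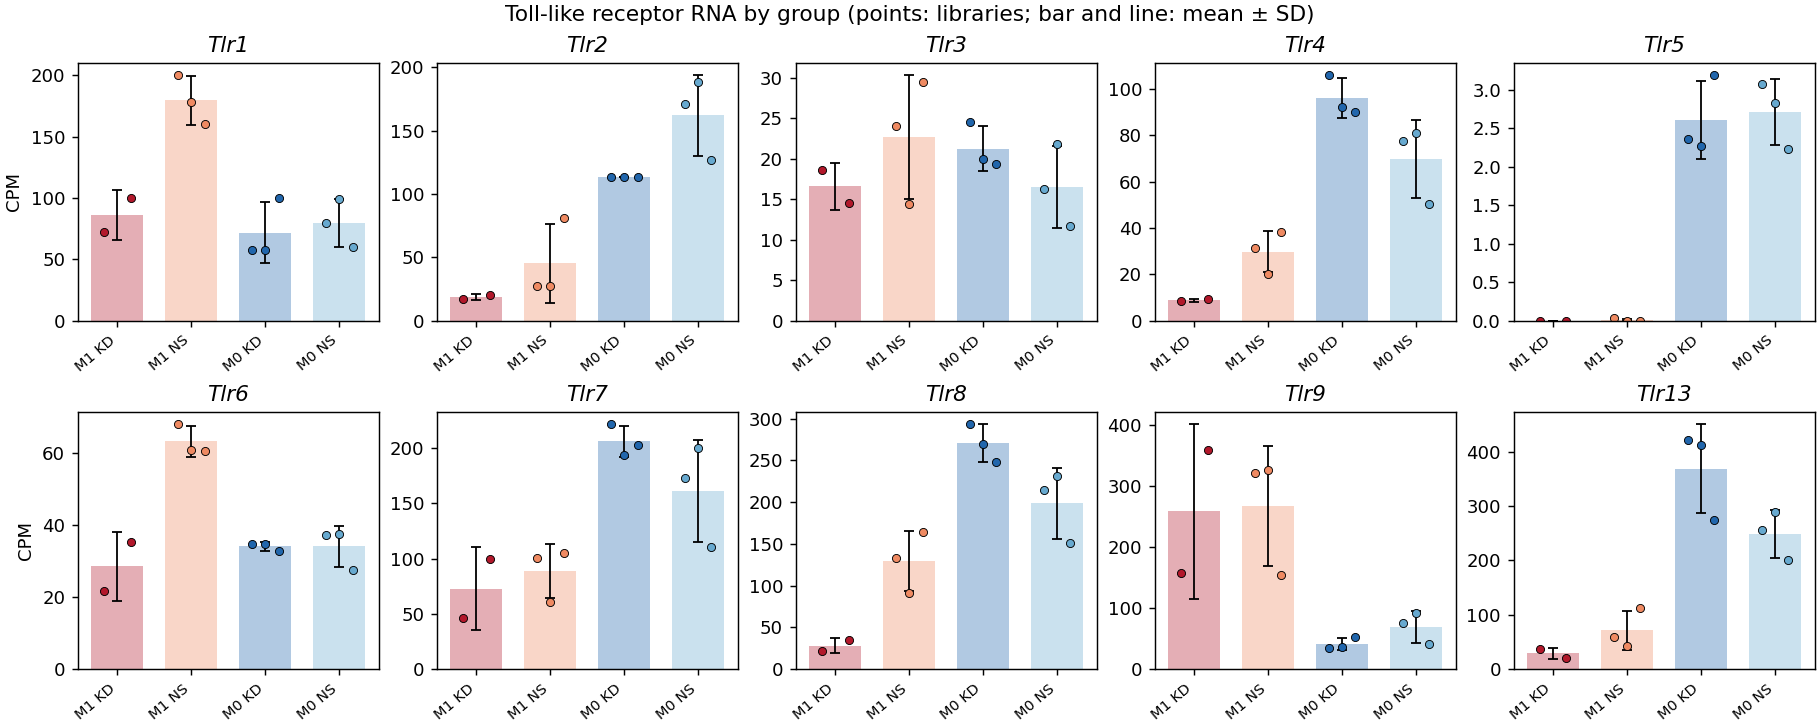
CPM of the 10 receptors in each library (points) with group mean and SD (bar and line), on an axis of its own for each gene. Tlr9 lies at 154.5 to 360.5 CPM in the M1 libraries and at most 93.0 in M0, and Tlr4, Tlr8 and Tlr13 are lowest in M1 KD.

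Tlr9, the sensor of CpG DNA, was the receptor called higher in M1 with either gapmer. It measured 158 and 360.5 CPM in M1 KD, 322, 328 and 155 in M1 NS, 35.3, 37.2 and 53.3 in M0 KD, and 75.6, 93.0 and 41.2 in M0 NS. Every M1 library was above every M0 library, but both M1 groups spread widely. Tlr9 was 3.83-fold higher in M1 NS than in M0 NS (log2 fold change 1.94, SE 0.38, edgeR adjusted p = 9.47e-04) and 6.18-fold higher in M1 KD than in M0 KD (log2 fold change 2.63, SE 0.42, edgeR adjusted p = 1.75e-04). Without M1 KD replicate 6 the log2 fold change of Tlr9 against M0 KD was 1.91.

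Between gapmers Tlr9 was not called in either state. Its log2 fold change was -0.05 (SE 0.41, edgeR adjusted p = 0.937) in M1 KD against M1 NS and -0.74 (SE 0.37, edgeR adjusted p = 0.413) in M0 KD against M0 NS. The M1 libraries with more Tlr9 also had more of the chemokine receptor gene Ccr7, a marker of mature dendritic cells that activated macrophages can also carry. Ccr7 was at 112 and 581 CPM in M1 KD and at 279, 321 and 89.8 in M1 NS, against at most 1.18 in M0 KD and 1.44 in M0 NS. The 7 conventional dendritic markers, most of whose sum in M1 was Ccr7, came to 132 and 617 CPM in M1 KD and 107 to 340.2 in M1 NS. In M0 KD they came to 7.25 to 12.7 CPM and in M0 NS to at most 12.6. Of these 7, the marker Cd209a passed the filter through M0 libraries only and had to come out lower. Of the other 6, 4 were called higher and 1 lower in M1 NS against M0 NS. In M1 KD against M0 KD 5 were called higher and 0 lower. Of all genes tested, 55.5% and 58.3% were called in these comparisons, with 26.9% higher in each. Besides Ccr7, those called higher in both comparisons were Xcr1, Clec9a and Zbtb46. Their log2 fold changes were 4.11, 2.41 and 1.09 in M1 NS against M0 NS. In M1 KD against M0 KD they were 3.965, 2.71 and 1.56. None of the 7 conventional dendritic markers was at 0 in a whole group, and Flt3 was at 5.17 CPM or less in every library. A list of 7 plasmacytoid dendritic markers summed to 78.8 and 116 CPM in M1 KD and 61.15 to 90.3 in M1 NS. Their sum was 91.7 to 105 CPM in M0 KD and 72.2 to 98.8 in M0 NS. Of 6 tested, 1 was called higher and 1 lower in M1 NS against M0 NS, and 2 higher and 0 lower in M1 KD against M0 KD. The 2 of 6 called in each comparison are a smaller share than that of all genes. The part of dendritic cells of either kind in the Tlr9 result was not tested.

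Tlr7, the sensor of single-stranded RNA, was lower in M1 than in M0 with either gapmer. Tlr7 measured 46.2 and 99.4 CPM in M1 KD, 100.3, 61.1 and 105 in M1 NS, 222, 194 and 203 in M0 KD, and 174, 199.9 and 111 in M0 NS. It was lower in M1 KD than in M0 KD (log2 fold change -1.50, SE 0.34, edgeR adjusted p = 0.00234), at -2.16 without M1 KD replicate 6. In M1 NS against M0 NS the Tlr7 log2 fold change was -0.86 (SE 0.29, edgeR adjusted p = 0.0242), a call that was lost without M0 NS replicate 1 (adjusted p = 0.0678), M0 NS replicate 2 (0.0972) or M1 NS replicate 2 (0.1). In M1 KD against M1 NS it was not called (-0.29, SE 0.33, edgeR adjusted p = 0.516), and the M1 groups overlapped.

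Tlr8, its neighbour on chromosome X, had the largest log2 fold change between gapmers in M1 of the 9 members other than Tlr5. It measured 21.9 and 34.8 CPM in M1 KD, 133, 91.5 and 164 in M1 NS, 294, 270.1 and 248 in M0 KD, and 214, 232 and 151 in M0 NS. Both M1 KD libraries were below all others, and M1 NS overlapped M0 NS. Tlr8 was 4.57-fold lower in M1 KD than in M1 NS (log2 fold change -2.19, SE 0.29, edgeR adjusted p = 1.59e-04) and 9.57-fold lower in M1 KD than in M0 KD (log2 fold change -3.26, SE 0.30, edgeR adjusted p = 2.43e-06). Its log2 fold change in M0 KD against M0 NS was 0.44 (SE 0.23, edgeR adjusted p = 0.426), and the difference of the gapmer effects was -2.64 (SE 0.36, edgeR adjusted p = 4.91e-04).

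Set against its neighbour, Tlr8 RNA per kilobase was 0.539 and 0.398 times that of Tlr7 in M1 KD, against 1.51, 1.70 and 1.77 times in M1 NS, 1.51, 1.59 and 1.39 times in M0 KD and 1.41, 1.32 and 1.55 times in M0 NS. The ratio was below 1 in M1 KD and above 1 in the other 9 libraries. In M1 NS against M0 NS Tlr8 was called lower by a small margin (log2 fold change -0.62, SE 0.23, edgeR adjusted p = 0.0391). That call was lost in 10 of 25 alternatives, with an adjusted p of 0.0505 to 0.137 when 1 library numbered 1 or 2 of M1 NS, M0 KD or M0 NS was left out.

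Tlr13, the mouse receptor for bacterial ribosomal RNA, had the largest fall with M1 after Tlr5 in the KD cells. It measured 36.5 and 21.2 CPM in M1 KD, 58.7, 43.2 and 112 in M1 NS, 421, 411 and 274 in M0 KD, and 256, 288 and 200.9 in M0 NS. The M1 groups lay below both M0 groups without overlap. Tlr13 was 12.8-fold lower in M1 KD than in M0 KD (log2 fold change -3.67, SE 0.42, edgeR adjusted p = 1.42e-05) and 3.48-fold lower in M1 NS than in M0 NS (log2 fold change -1.80, SE 0.33, edgeR adjusted p = 5.54e-04).

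The gapmer effect on Tlr13 in M1 was less firm. In M1 KD against M1 NS the log2 fold change was -1.30 (SE 0.38, edgeR adjusted p = 0.0179). Without M1 NS replicate 4 it was -0.78 (adjusted p = 0.0512), without M1 KD replicate 6 it was -0.97 (adjusted p = 0.142), and with M1 KD and M1 NS alone it was -1.26 (adjusted p = 0.0639). The difference of the gapmer effects on Tlr13 was -1.87 (SE 0.49, edgeR adjusted p = 0.0152), and without M1 KD replicate 6 it was -1.53 (adjusted p = 0.0711). In M0 KD against M0 NS the log2 fold change was 0.57 (SE 0.32, edgeR adjusted p = 0.445).

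Tlr3, the double-stranded RNA sensor, was called in none of the 5 comparisons as reported here, though some alternatives called it. It measured 18.6 and 14.5 CPM in M1 KD, 24.0, 14.4 and 29.5 in M1 NS, 24.5, 19.9 and 19.3 in M0 KD, and 16.3, 21.8 and 11.6 in M0 NS. M1 NS overlapped M0 NS, M1 KD overlapped M1 NS, and M1 KD lay just below M0 KD. Its log2 fold changes were 0.46 (SE 0.26) in M1 NS against M0 NS, -0.35 (SE 0.30) in M1 KD against M0 KD, -0.45 (SE 0.30) in M1 KD against M1 NS and 0.36 (SE 0.26) in M0 KD against M0 NS, and the edgeR adjusted p-values were 0.16, 0.322, 0.254 and 0.542 in that order. In M1 NS against M0 NS Tlr3 was called without M1 NS replicate 2 (log2 fold change 0.70, adjusted p = 0.026) and with the trend in length and GC content removed (0.51, adjusted p = 0.0395). With library size as the only scaling Tlr3 was called lower in M1 KD against M0 KD (-0.84, adjusted p = 0.0302). The difference of the gapmer effects on Tlr3 was called with no filter on low counts (-0.79, adjusted p = 0.0211) and without M1 NS replicate 2 (-1.05, adjusted p = 0.0342), against -0.81 (adjusted p = 0.148).

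Downstream of the receptors, adaptors carry the signal from the TIR domains. In M1 NS against M0 NS, 3 of the 4 other than Sarm1 were called higher and 0 lower, against 55.5% of all genes called. Higher were Myd88, the adaptor of all members but Tlr3 (log2 fold change 1.26, SE 0.18), Ticam1, which encodes TRIF (1.07, SE 0.21), and Ticam2, which bridges TLR4 to TRIF (0.85, SE 0.22). Sarm1, a TIR protein at 0.796 CPM or less in every library, passed the filter on low counts through M0 libraries only and so had to come out lower. Tirap, which bridges TLR2 and TLR4 to MyD88, was not called (0.22, SE 0.14, edgeR adjusted p = 0.217). Between the M1 groups, 3 adaptors were lower with KD and 0 higher, against 36.8% of all genes called, 19.2% lower. Tirap was at 10.5 and 11.5 CPM in M1 KD, 24.1, 20.8 and 26.2 in M1 NS, 25.4, 23.2 and 21.6 in M0 KD, and 21.8, 22.6 and 16.9 in M0 NS. Thus M1 KD alone lay apart, with a log2 fold change of -1.11 against M1 NS (SE 0.17, edgeR adjusted p = 3.77e-04).

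Myd88 and Ticam1 were lower in M1 KD than in M1 NS by smaller amounts, at -0.62 (SE 0.20, edgeR adjusted p = 0.0297) and -0.66 (SE 0.24, edgeR adjusted p = 0.048) on the log2 scale. Myd88 lost this call in 6 of 22 alternatives and Ticam1 in 16, while Tirap kept it in all 22. Against M0 KD, Myd88 (0.96), Ticam2 (0.77) and Ticam1 (0.66) were called higher in M1 KD and Tirap lower (-1.09), and with library size as the only scaling or without M1 KD replicate 6 Myd88 was the adaptor still higher. For the difference of the gapmer effects, 1 adaptor was called, Tirap at -1.31 (SE 0.22, edgeR adjusted p = 0.00141), and in M0 KD against M0 NS 0 were. Of all genes tested, 58.3% were called in M1 KD against M0 KD and 27.3% for the difference. Of the 4 adaptors other than Sarm1, all 4 were called in M1 KD against M0 KD. For the difference, 1 of these 4 is no larger a share than that of all genes.

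**Figure D4:**
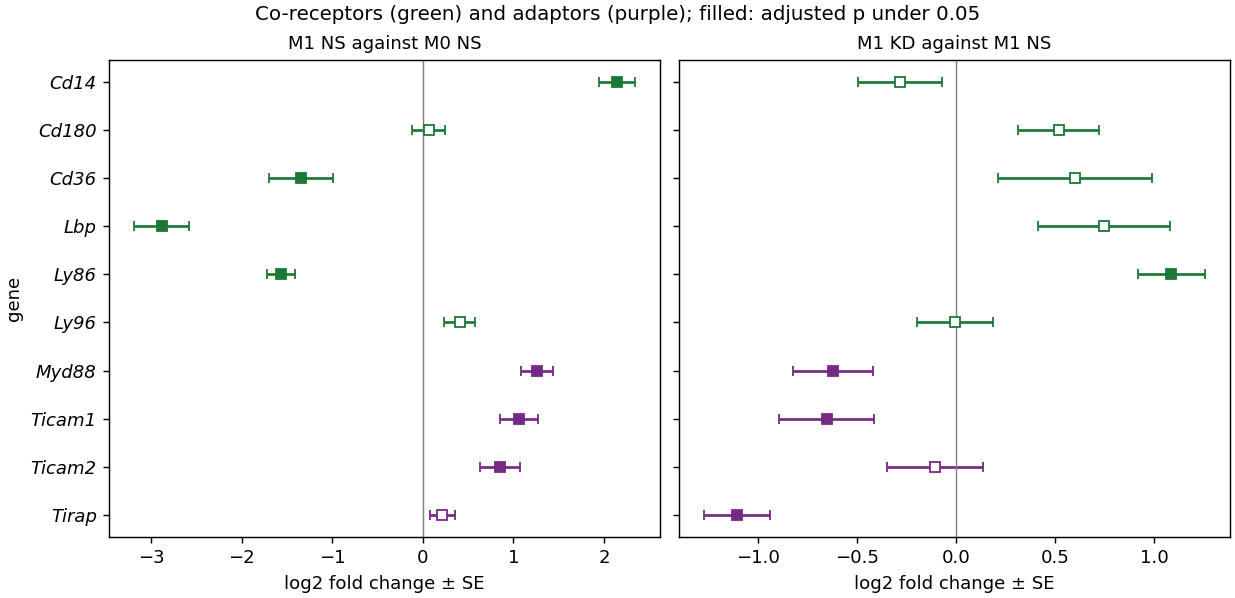
Log2 fold change ± SE of co-receptors (green) and adaptors (purple), filled where the adjusted p is under 0.05. Sarm1 and Lrrc32, at 2.88 CPM or less in every library, are not drawn. Cd14 and Myd88 lie right of 0 in M1 NS against M0 NS, and Tirap lies at -1.11 in M1 KD against M1 NS.

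The kinases and ubiquitin enzymes after the adaptors were largely higher in M1 NS and, as with the receptors, lower with KD in M1. Of 19 such signalling genes, 12 were called higher and 3 lower in M1 NS against M0 NS (median log2 fold change 0.57, against -0.038 over all genes; 5 higher and 4 lower with library size as the only scaling), led by the kinase gene Irak2 at 1.96, the ubiquitin ligase gene Peli1 at 1.97 and the kinase gene Tbk1 at 1.06. Between M1 KD and M1 NS, 0 were higher and 10 lower (median -0.38, against 0.00103 over all genes), led by Ube2n, a ubiquitin-conjugating enzyme (-0.96), Ikbkb, which encodes the kinase IKK-beta (-0.75), and Map3k7, which encodes the kinase TAK1 (-0.65). That count of lower genes was 5 with M1 KD and M1 NS alone, where 1546 of 13565 genes were called lower. With upper-quartile factors it was 6, where 2177 of 15024 genes were called lower, against 2890 of 15024 in the main fit. It was smaller still without M1 KD replicate 5, which leaves 1 library in that group. Between M1 KD and M0 KD 5 were higher and 4 lower, with Irak2 at 2.09, Traf3 at 1.06 and Peli1 at 1.25. Within M0, 0 were called, and the smallest p-values were those of Tab1 (-0.50) and Map3k8 (-0.40). The difference of the gapmer effects was called lower for 5, with Ube2n at -1.03, Map3k7 at -0.86 and Tbk1 at -0.66, and for 2 when any of 6 single libraries was left out. Of all genes tested, 55.5% were called in M1 NS against M0 NS and 58.3% in M1 KD against M0 KD. In M1 KD against M1 NS 36.8% were called (19.2% lower), and for the difference 27.3% (14.2% lower). The 9 of 19 called in M1 KD against M0 KD and the 5 of 19 for the difference are no larger shares.

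Genes that fold, move or cut the receptors split within M1 KD. Of 14 in the table, 2 were higher and 5 lower in M1 NS against M0 NS, led by Slc15a3, a lysosomal peptide transporter (log2 fold change 2.40), Lrrc59, an endoplasmic reticulum protein (1.10), and Ctsl, which encodes the endosomal protease cathepsin L (-2.39). These 7 of 14 are no larger a share than the 55.5% of all genes called. With KD in M1, 5 were higher and 3 lower than in M1 NS, with the cathepsin genes Ctsl at 2.24, Ctsb at 1.11 and Ctsk at 2.09. Ctsl measured 1106 and 404 CPM in M1 KD and 141, 140.4 and 198 in M1 NS, so that its M1 KD libraries differed by more than the M1 NS libraries did. Set against M0 KD, 5 were higher and 1 lower in M1 KD, with Slc15a3 at 2.82, Slc15a4 at -1.03 and Cnpy3, a chaperone of several Toll-like receptors, at 0.76, a split that turned to 1 higher and 6 lower with library size as the only scaling. For the difference of the gapmer effects 5 were higher and 2 lower, with Ctsb at 1.21, Ctss at 1.13 and Ctsl at 1.91. That count of 7 called, against 27.3% of all genes, ran from 3 to 10 with a library left out. The share of all genes ran from 20.3% to 31.5% with a library of M1 NS, M0 KD or M0 NS left out. Of all genes, 36.8% were called in M1 KD against M1 NS and 58.3% in M1 KD against M0 KD. The 6 of 14 called in M1 KD against M0 KD are no larger a share. Within M0, 0 were called between gapmers, with the smallest p for Cnpy3 (-0.54) and Unc93b1 (-0.62), whose protein carries the endosomal receptors out of the endoplasmic reticulum.

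Most restraints on the pathway were higher in M1. Of the 14 negative regulators other than Il1rl1, which passed the filter through M0 libraries only, 11 were higher and 2 lower in M1 NS against M0 NS, with the cytokine signalling suppressor gene Socs1 at 7.13, Irak3, which encodes the inhibitor IRAK-M, at 2.11 and the ubiquitin ligase gene Rnf144b at -6.26. Of the same 14, 10 were higher and 1 lower in M1 KD against M0 KD, with Socs1 at 8.47, Rnf144b at -5.61 and Zc3h12a, which encodes the ribonuclease Regnase, at 2.56. With KD in M1, 2 were higher and 5 lower against M1 NS, and 4 higher and 1 lower with upper-quartile factors. Irak3 measured 46.2 and 47.1 CPM in M1 KD, 157, 146 and 172 in M1 NS, 28.5, 26.8 and 30.1 in M0 KD, and 38.6, 40.5 and 31.5 in M0 NS. It fell with KD in M1, by 1.77 on the log2 scale (SE 0.14, edgeR adjusted p = 8.26e-06), while Sigirr, which encodes an inhibitory receptor with a TIR domain (2.10), and Socs1 (1.16) were higher, Socs1 with an adjusted p of 0.156 without M1 KD replicate 6. Irak3 (-1.39), Sigirr (2.33) and Socs1 (1.33) were also the 3 regulators called for the difference of the gapmer effects. Of all genes tested, 55.5% were called in M1 NS against M0 NS and 58.3% in M1 KD against M0 KD, with 26.9% higher in each. In M1 KD against M1 NS 36.8% of all genes were called. For the difference it was 27.3%, so that 3 of 14 regulators are no larger a share. Of the 14, 0 were called in M0 KD against M0 NS, with the smallest p for Zc3h12a (-0.65) and Irak3 (-0.37).

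The other 2 mouse Toll-like receptor genes in the table stayed low, with at most 1.39 CPM of Tlr11 and 1.70 CPM of Tlr12 in any library. Tlr11 was lower in M1 NS against M0 NS (log2 fold change -1.82, SE 0.52, edgeR adjusted p = 0.0102) and in M1 KD against M0 KD (-2.94, SE 0.73, edgeR adjusted p = 0.00407), and Tlr12 was called in no comparison.

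The genes with the most similar profile were sought by the Pearson correlation of log2 CPM over the 11 libraries. These libraries fall into M0 and M1, so any gene that differs strongly between the states correlates with others that do, and the values are given as a description only. Tlr9 was most like Bcl9 (0.980), Tlr1 like Sdc4 (0.986), and Tlr6 like Tada2b (0.977). Tlr4 was most like Zfp770 (0.992), Tlr8 like Zfp709 (0.996), Tlr13 like Cog6 (0.994), Tlr2 like Card6 (0.985), Tlr7 like Rnf103 (0.982) and Tlr5 like Sesn1 (0.999). The closest gene to Tlr3, Copb1, reached 0.929, the lowest of the 10 top values.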

How the data were processed

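RNA was sequenced from 11 libraries. The submitters' processing notes name GRCm38 as the build and list STAR 2.5.2b, Trimmomatic 0.36 and Subread 1.5.2 (featureCounts) as tools. The authors deposited raw counts per gene. The authors also deposited normalized values (a signal) for 22812 genes, which equal the count divided by 1 constant per library. An entry with a blank name (at most 3e-04% of counts) was left out. Total counts per library ran from 30040632 to 43250392, and intervals and floors cover counting error only.

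Counts were tested with edgeR 4.0.16 in R 4.3.3: filterByExpr (minimum count 10, minimum total 15; 15024 genes), TMM factors, 1 quasi-likelihood fit of all 11 libraries with a coefficient per group (robust), since M1 KD has 2 libraries, and Benjamini-Hochberg adjustment over all genes. All 10 members were tested; Tlr5 passed only through M0 libraries, as did Sarm1 and Il1rl1 (under 10 counts in every M1 library). Lengths and positions came from GENCODE M21, while the authors' own annotation is not stated.

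Members and gene lists were chosen with earlier results of these data known. All members, adaptors and co-receptors could be named, as could the 3 called genes with the smallest p per list and comparison (2 with the smallest p where none was called), and the 3 genes most like each member. Nos2, Il12b, Ptgs2, Ccr7, Flt3, Xcr1, Clec9a and Zbtb46, and Ctsl and Irak3 levels by library, were chosen after their values were seen. Alternatives, run for the members and, as chosen after seeing the data, for the counts of the lists, were DESeq2 1.42.0, limma-voom and limma-trend (limma 3.58.1; log2 of normalized values plus 1), other scaling factors, filters and thresholds, fits to a pair of groups only, a block for the number in the label, removal of a trend in length and GC content, and each library left out.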

Additional observations from a re-analysis of the deposited data

Results flagged for a closer look

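For 4 receptors the effect of the MERRICAL gapmer differed between M1 and M0 in the test of the difference itself (M1 KD minus M1 NS, less M0 KD minus M0 NS, edgeR). The log2 difference was -2.23 for Tlr4 (adjusted p = 9.25e-04), -1.15 for Tlr6 (adjusted p = 0.0075), -2.64 for Tlr8 (adjusted p = 4.91e-04) and -1.87 for Tlr13 (adjusted p = 0.0152). Of all genes tested, 27.3% were called in this comparison. Since M1 KD has libraries numbered 5 and 6 and the other groups 1, 2 and 4, a difference in how these libraries were made and the effect of the gapmer in M1 cannot be told apart.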

How the results depend on the processing

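Over 25 alternatives at most, no called receptor changed direction. Counts of members here include Tlr5, which passed the filter through M0 libraries only and had to be called lower in M1 against M0. Leaving out a library of M1 NS, M0 KD or M0 NS gave these shares of all genes called. They were 48.6% to 57.7% in M1 NS against M0 NS and 52.8% to 62.6% in M1 KD against M0 KD. In M1 KD against M1 NS they were 29.6% to 38.8%, and for the difference of the gapmer effects 20.3% to 31.5%. With a library left out, 7 to 9 members were called in M1 NS against M0 NS, 7 to 8 in M1 KD against M0 KD, 4 to 6 in M1 KD against M1 NS, 0 in M0 KD against M0 NS and 4 to 5 for the difference of the gapmer effects. With no filter on low counts 1 of the members was called in M0 KD against M0 NS, against 0 (Tlr9, log2 fold change -0.75, adjusted p = 0.00187; 1.31% of all genes called), and 8 for the difference of the gapmer effects, against 4 (15% of all genes). At an adjusted p under 0.01, 3 were called in M1 KD against M1 NS, against 6 (21.7% of all genes). The values that changed sign were uncalled. For Tlr6 in M0 KD against M0 NS they were 0.012 with limma-voom, 0.014 with upper-quartile factors, 0.0076 with the compared groups alone, 0.014 with the replicate block, 0.058 with library size only, 0.016 with a CPM above 1 in 3 libraries, and -0.13 to 0.069 with a library left out. Upper-quartile factors gave 0.10 for Tlr9 in M1 KD against M1 NS, library size only gave -0.23 for Tlr1 in M1 KD against M0 KD and 0.0065 for Tlr5 in M0 KD against M0 NS, and removal of the trend gave 0.11 for Tlr3 in M1 KD against M0 KD. With a library left out, the range in M0 KD against M0 NS was -0.47 to 0.043 for Tlr1 and -0.23 to 0.044 for Tlr5, in M1 KD against M0 KD -0.65 to 0.049 for Tlr6, in M1 KD against M1 NS -0.95 to 0.15 for Tlr7 and -0.77 to 0.42 for Tlr9, and for the difference of effects -0.026 to 1.16 for Tlr9. The cause was not tested. Library size only moved the median of all genes to -0.424 in M1 NS against M0 NS (2348 higher and 6447 lower calls, against 4044 and 4294) and to -0.595 in M1 KD against M0 KD (2376 and 7077, against 4040 and 4715); upper-quartile factors moved it to -0.16 in M1 NS against M0 NS, to 0.151 in M1 KD against M1 NS (3454 and 2177, against 2645 and 2890) and to 0.12 for the difference of effects (2474 and 1705, against 1965 and 2130). With the label number as a replicate block over 9 libraries, 8 receptors were called in M1 NS against M0 NS, against 9 (Tlr8 lost, edgeR adjusted p = 0.0646). Of all genes, 57% were called there. In M0 KD against M0 NS the block gave 0 receptors. Same-numbered libraries were correlated on log2 CPM with the group mean of each gene taken off. Between M0 KD and M0 NS the values were 0.135, 0.0221 and 0.124, against -0.133 to 0.0323 for libraries of different numbers. Between M1 NS and M0 NS they were 0.0899, -0.0752 and -0.0825, against -0.142 to 0.173. Between M0 KD and M1 NS they were 0.0127, -0.000312 and -0.115, against -0.117 to 0.0843. Numbers 1 and 4 thus lay above the different-numbered pairs within M0, but not between the states. With all same-numbered values at 0.135 or less, the numbers were not taken to pair the libraries. Taking off a mean of 3 libraries ties these values to each other, so they cannot decide on a pairing within M0. M1 KD, numbered 5 and 6, could not enter a block. Libraries of M0 KD and M0 NS alone gave 1103 called genes, against 0, but no receptor.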
